A study of Mus musculus with 10 samples.

Results

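The natriuretic peptide system of the left ventricle was described at the RNA level in 5 control mice, numbered TT-583 through TT-587, and 5 HFD+mTAC mice, numbered TT-588 through TT-592. Its 9 genes were chosen by name, with earlier results of these data known: the peptide genes Nppa, Nppb and Nppc, the receptor genes Npr1, Npr2 and Npr3, and the processing and degrading enzymes Corin, Furin and Mme. All 9 were among the 29564 genes listed, and 8 of them were among the 13297 genes tested, since Nppc did not pass the filter on low counts. HFD+mTAC mice ate a high-fat diet (HFD) and had undergone moderate transverse aortic constriction (mTAC), in which the aorta is narrowed surgically so that the left ventricle pumps against a higher pressure, whereas control mice had neither. All 10 mice are labelled wild-type C57BL6 and vehicle-treated, and the study's methods give the strain as C57BL/6J. The protocol attached to all samples describes a vehicle of DMSO, PEG-300 and water at 10 mL/kg daily over 6 to 9 weeks, but it speaks of HFD+mTAC mice, and the dosing of control mice is not spelled out. The diet and the operation came together in HFD+mTAC mice, and their separate parts in any difference cannot be told apart. According to the study's methods the mice were adult males, and the labels give no age at tissue collection. The study built this model to represent heart failure with preserved ejection fraction, and the comparison asks how the transcripts of the model's left ventricle differ from those of control mice.

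Natriuretic peptides are hormones that the heart releases when its walls are stretched, and they promote salt excretion, widen blood vessels and oppose hypertrophy. Nppa encodes the precursor of atrial natriuretic peptide (ANP), Nppb that of B-type natriuretic peptide (BNP) and Nppc that of C-type natriuretic peptide (CNP), of which the first 2 are made by cardiomyocytes and the last largely by endothelial cells. Npr1 encodes the guanylyl cyclase receptor for ANP and BNP, Npr2 the guanylyl cyclase receptor for CNP, and Npr3 the clearance receptor, which takes up all these peptides and has no cyclase domain. Corin, a transmembrane protease of cardiomyocytes, cuts the ANP precursor, furin is a proprotein convertase of the secretory pathway that acts on the BNP and CNP precursors, and neprilysin, the product of Mme, degrades the peptides outside the cell. In adult mice ANP is made mainly in the atria, and load on the ventricle is known for raising ventricular Nppa and Nppb.

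Nppa and Nppb are neighbours on chromosome 4 and read in the same direction. In the GENCODE M21 annotation of GRCm38, Nppb spans chr4:147985788-147987205 and Nppa chr4:148000722-148002079, both on the plus strand, with 13517 bases between them. The stretch before the start of Nppa and a short site before the RefSeq start of Nppb are shown because both hold GATAA, the letters that GATA factors such as the cardiac regulator Gata4 recognize. The bases, from RefSeq on GRCm38.p6, are chr4:148000472-148000721 for Nppa and chr4:147985803-147985832 for Nppb, on the plus strand. The GENCODE start of Nppb lies upstream of the RefSeq start, so that the Nppb site is before the gene in RefSeq and inside its first exon in GENCODE. Capitals mark GATAA, its reverse complement TTATC and the TATA box letters TATAAA.
Nppa: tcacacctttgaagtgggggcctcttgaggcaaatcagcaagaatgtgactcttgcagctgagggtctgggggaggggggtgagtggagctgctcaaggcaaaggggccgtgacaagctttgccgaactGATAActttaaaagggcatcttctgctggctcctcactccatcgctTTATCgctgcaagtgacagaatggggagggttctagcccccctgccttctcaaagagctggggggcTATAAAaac
Nppb: gctGATAAatcagaGATAAccccaccccta
Counted back from the RefSeq start, the GATAA matches on either strand began at -121 and -75 in Nppa and at -94 and -83 in Nppb. TATAAA, searched on both strands, began at -9 in Nppa and at -31 in Nppb, the latter lying outside the bases shown. Of 32851 RefSeq promoter windows, 22.6% held GATAA and 12.4% held TATAAA. The letters AAGTG, which NK homeobox factors recognize, were found on either strand 2 times before Nppa and 0 times before Nppb, and 40.7% of all windows held them. These matches describe letters and not binding.

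Total estimated counts were 34.2 to 53.7 M per mouse and did not differ detectably between the groups (two-sided exact permutation test, p = 0.444), with 12.6 to 21.1 M on the genes tested. Mitochondrially encoded genes took 43.8 to 52.7% of the counts (exact permutation test, p = 0.246). Between libraries of the same group the chi-square of the counts was at least 12.9 per degree of freedom, above sampling noise, and each library was used as 1 replicate. Of 7 atrial myocyte markers, Sln and Bmp10 were under 1 CPM (counts scaled to a common library size) in every mouse and Myl7 was at 1.48 CPM or less, whereas Myl4 was at 2.15 to 5.03, Dkk3 at 1.86 to 6.61, Stard10 at 31.0 to 43.5 and Kcnj3 at 76.1 to 142 CPM, and the cardiomyocyte genes Actc1, Tnnt2 and Tnni3 were among the abundant transcripts.

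By level, Nppb and Nppa led the system in every mouse. Levels of different genes were compared only on scales that correct for length, first as TPM, the deposited length-corrected abundance within a library. Nppb averaged 217 TPM over the 10 mice (range 102 to 382) and Nppa 96.2 TPM (46.2 to 140.2), and Nppb lay above Nppa in 10 of 10 mice. The guanylyl cyclase receptors followed far behind, with 8.33 TPM for Npr2 (4.51 to 10.5) and 4.72 TPM for Npr1 (2.06 to 7.03), on either side of Corin at 7.15 TPM (4.72 to 8.89). Npr2 exceeded Corin in 8 of 10 mice and Corin exceeded Npr1 in 8 of 10, so that these neighbours overlapped. Furin averaged 1.06 TPM (0.716 to 1.49), the clearance receptor Npr3 0.701 TPM (0.323 to 0.990) and Mme 0.307 TPM (0.158 to 0.528). Furin exceeded Npr3 and Npr3 exceeded Mme in 9 of 10 mice each.

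The order in the middle depended on the length used. On a second scale, CPM per kilobase of the longest annotated transcript, Nppb (523) and Nppa (263) again led and Corin (62.3) came next. Furin (22.7) and Npr2 (22.6) then lay together, with Furin above Npr2 in 5 of 10 mice, followed by Npr1 (10.95), Npr3 (5.04) and Mme (2.25). Furin thus stood above Npr1 on this scale and below Npr1 on the TPM scale, in both cases by the mean of the 10 mice.

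Nppc was close to undetected. Its counts were 0, 3, 0, 3 and 1 among control mice, against 0 in each HFD+mTAC mouse, 7 counts in all, on chromosome 1 (chr1:86666291-86670571, minus strand). A count of 0 allows up to 3 counts per mouse, or 0.142 to 0.237 CPM at these depths, so that no difference between the groups was detectable. These limits cover counting error only.

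None of the 8 genes tested passed the test between the groups. At an adjusted p under 0.05 from edgeR's quasi-likelihood test, 0 of 8 were called, against 0.0602% of all genes tested (8 of 13297). Genes called higher made up 0.0451% and genes called lower 0.015%. DESeq2 also called 0 of 8, against 0.902% of all genes. At an unadjusted p under 0.05 in edgeR there were 3 of 8, namely Mme, Npr2 and Nppb, against 8.26% of all genes. In 0 of 8 did all mice of one group lie above all mice of the other, against 1.96% of all genes. Of the 8 log2 fold changes 4 were positive and 4 negative, with a median of -0.05 against 0.00 over all genes tested.

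**Figure D1:**
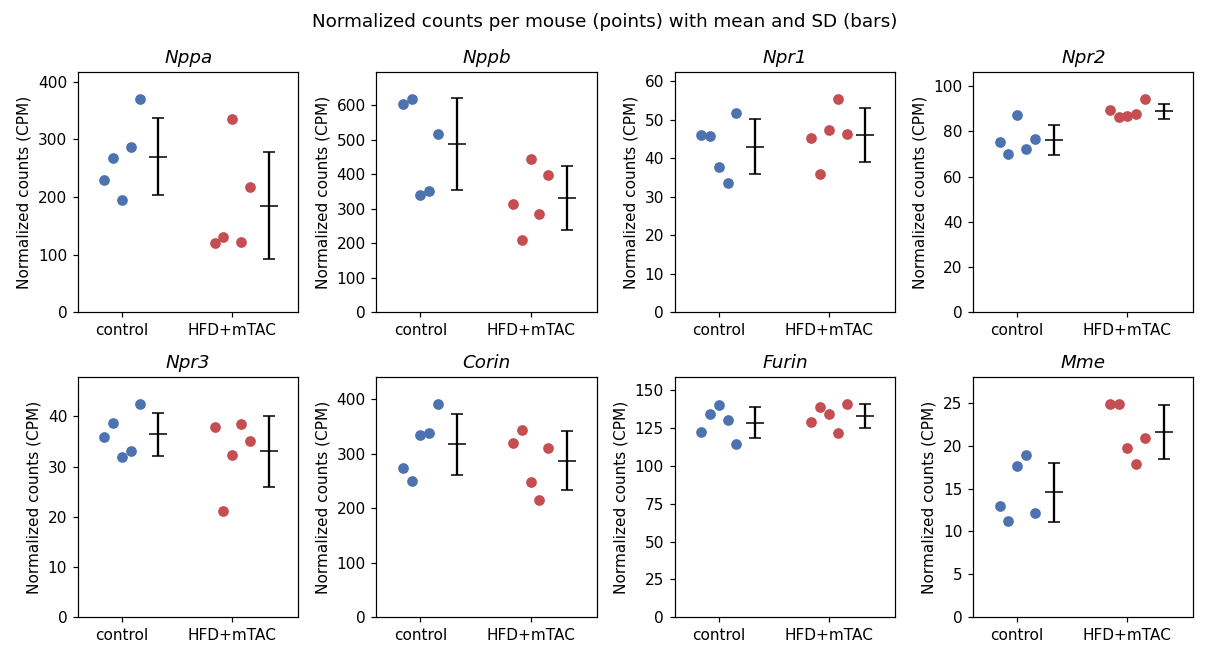
Normalized counts (CPM, vertical axes starting at 0) of the 8 genes tested, with 1 point per mouse, 5 control and 5 HFD+mTAC mice, and the mean with its SD beside each group. Groups overlap in every panel, least for Npr2 and Mme, and for Nppa 1 HFD+mTAC mouse (TT-590) stands at 336 CPM among others at 120 to 218.

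The 2 cardiac peptide genes had lower means in HFD+mTAC mice, without passing the test. In order of mouse number, Nppa was at 229.5, 268, 194, 287 and 371 CPM in control mice and at 119.5, 129.8, 336, 122 and 218 CPM in HFD+mTAC mice. Of the HFD+mTAC mice, 3 lay below the lowest control mouse, whereas TT-590 lay above 4 of the 5 control mice. The means were 270.0 ± 66.8 and 185 ± 93.6 CPM (SD, n = 5 each), and the log2 fold change was -0.54 ± 0.28 (standard error, 95% interval -1.16 to 0.07, edgeR, adjusted p = 0.659). The exact permutation test on log2 CPM gave an unadjusted p of 0.0952, and 0.00794 is the smallest p that 5 against 5 mice allow. Without TT-590 the log2 fold change of Nppa was -0.87, with an adjusted p of 0.326 from edgeR. It shrank to -0.40 without TT-587, -0.42 without TT-588, -0.43 without TT-591 and -0.45 without TT-589.

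Nppb was at 602, 619, 341, 352 and 518 CPM in control mice and at 313, 209.7, 446, 285 and 398 CPM in HFD+mTAC mice. Again 3 HFD+mTAC mice lay below the lowest control mouse, and 3 control mice lay above the highest HFD+mTAC mouse. The means were 486 ± 134 and 330.0 ± 93.2 CPM (SD, n = 5 each), and the log2 fold change was -0.56 ± 0.22 (standard error, 95% interval -1.04 to -0.08, edgeR, adjusted p = 0.504). The exact permutation test gave an unadjusted p of 0.0794. With 1 mouse left out, the log2 fold change of Nppb lay between -0.69 (TT-590) and -0.44 (TT-589). Its 95% interval reached up to 0.02 without TT-583 or TT-584 and to 0.0008 without TT-589. In bulk tissue, fewer cells of a type and less RNA per cell cannot be told apart. Of 8 cardiomyocyte markers (Actc1, Myh6, Tnnt2, Tnni3, Myl2, Ryr2, Pln and Ttn), 8 had negative log2 fold changes, with a median of -0.20 and 0 called by edgeR. Their summed level was 64950 to 70578 CPM in control and 56530 to 64010 CPM in HFD+mTAC mice, and the part of this in the values of Nppa and Nppb was not tested.

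**Figure D2:**
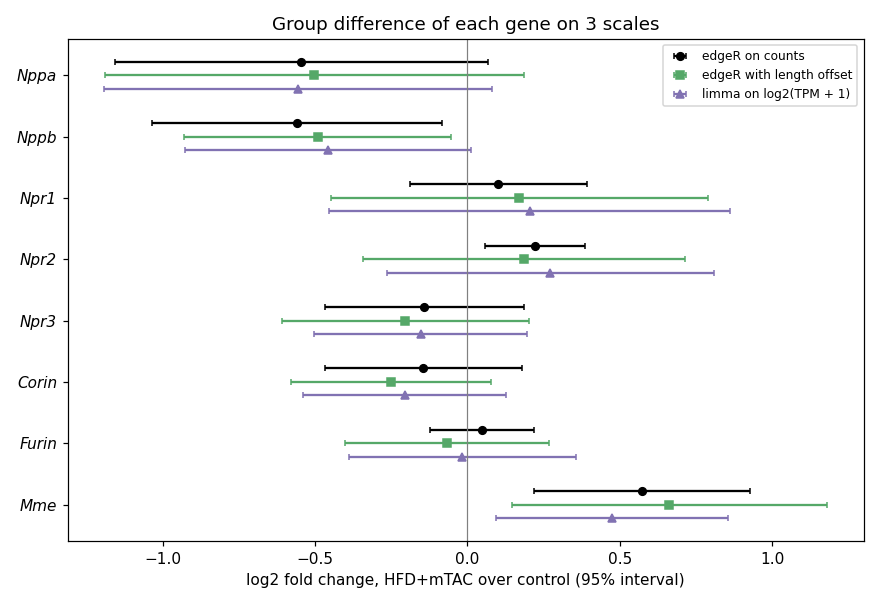
Log2 fold change of HFD+mTAC over control mice for the 8 genes tested (points) with 95% intervals (bars), from edgeR on counts, from edgeR with average transcript lengths as an offset, and from limma on log2(TPM + 1). The intervals of Npr1, Npr2 and Furin widen most on the scales that use lengths, and for Furin the point crosses 0.

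The 2 peptide genes moved together across mice. Over the 10 mice, log2 CPM of Nppa and Nppb had a Pearson r of 0.74 (permutation p = 0.0162, adjusted over 5 relations 0.0405) and a Spearman rho of 0.73 (permutation p = 0.0199, adjusted 0.0497). Mice TT-588, TT-589 and TT-591 had the lowest values of both genes. Without TT-588 and TT-591, the mice farthest from the median of Nppa, r was 0.70, and after subtraction of the group means it was 0.61. The p-values are for the pooled mice, in which both genes had lower means in the HFD+mTAC group. For the r of 0.61 no p was computed. The ratio of Nppa to Nppb in TPM did not differ detectably between the groups, with a mean log2 ratio of -1.13 ± 0.49 in control and -1.23 ± 0.44 in HFD+mTAC mice (SD, n = 5 each, exact permutation test, p = 0.738). The difference was -0.10, and it turned positive without TT-586 (0.05) or without TT-588 (0.03).

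No relation of Nppa or Nppb with the atrial list was detected over all mice. The mean log2 CPM of the 5 atrial markers tested (Myl4, Bmp10, Stard10, Kcnj3 and Dkk3) gave r = -0.09 with Nppa (permutation p = 0.800, adjusted 0.800, rho -0.01) and r = 0.30 with Nppb (permutation p = 0.401, adjusted 0.501, rho 0.32). Both depended on TT-588 and TT-586, without which r was 0.65 with Nppa and 0.68 with Nppb. After subtraction of the group means r was 0.16 with Nppa and 0.71 with Nppb, so that the relation of Nppb differed between the pooled and the within-group values. Of these markers Bmp10 had a log2 fold change of 1.36, at a level under 1 CPM (edgeR, unadjusted p = 0.0159, adjusted p = 0.461). TT-588 had the highest Bmp10 value (0.833 CPM) and TT-586 the lowest (0.0705 CPM). The mean gave each marker the same weight whatever its level, and a mean without Bmp10 was not tested. The summed level of the 7 atrial markers was 141 to 183 CPM in control and 120.4 to 183 CPM in HFD+mTAC mice, of which Kcnj3 alone made up the greater part, with a mean of 111 CPM in control mice.

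Genes whose pattern was most like that of the peptides were sought among 10091 genes with a mean of at least 5 CPM, by Pearson r of log2 CPM over the 10 mice, as a description. For Nppa these were Med7 (0.93), Mpst (0.91) and Kars (0.91), encoding a Mediator subunit, a sulfurtransferase and lysyl-tRNA synthetase. For Nppb they were Actb (0.94), cytoplasmic beta-actin, Col4a4 (0.92), a basement membrane collagen chain, and Dusp5 (0.92), a phosphatase that acts on ERK. Actb itself was at 1515 ± 292 CPM in control and 1069 ± 199.5 CPM in HFD+mTAC mice (SD, n = 5 each).

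**Figure D3:**
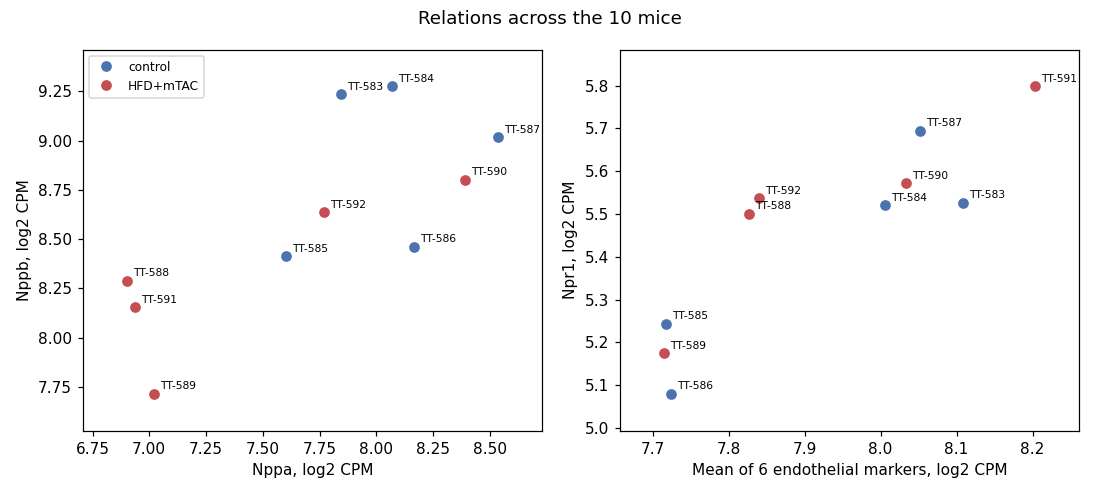
Left, log2 CPM of Nppb against that of Nppa, and right, log2 CPM of Npr1 against the mean log2 CPM of 6 endothelial markers, with 1 labelled point for each of the 10 mice, coloured by group. Both relations are positive, with r of 0.74 and 0.88, and mice of the 2 groups are mixed along the second.

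Genes around the peptide genes were described in the same way. Within 150000 bases of Nppa or Nppb lie 10 other protein-coding genes, of which 9 were tested, 3 with positive and 6 with negative log2 fold changes, 0 called (0.0602% of all genes) and 0 with an unadjusted p under 0.05 in edgeR (8.26% of all genes), and 0 called by DESeq2 (0.902%). Over 9 genes, counts of 0 lie near these shares. They included Clcn6, a chloride transporter gene next to Nppa (log2 fold change 0.22, adjusted p = 0.692 from edgeR), and Mfn2, a mitochondrial fusion gene (-0.02, adjusted p = 0.983 from edgeR). The values of Nppa and Nppb were thus further from 0 than those of any of the 9 neighbours, the farthest of which was Fv1 at 0.24.

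Among the receptors, Npr2 had the smallest spread between mice on the CPM scale, though not in TPM. Npr2 (chr4:43631935-43651244, plus strand) was at 75.4, 70.1, 87.1, 72.4 and 76.5 CPM in control mice and at 89.3, 86.5, 86.8, 87.8 and 94.5 CPM in HFD+mTAC mice. All HFD+mTAC mice lay above 4 of the 5 control mice, and the groups overlapped through control mouse TT-585 at 87.1 CPM. The means were 76.3 ± 6.52 and 89.0 ± 3.29 CPM (SD, n = 5 each), and the log2 fold change was 0.22 ± 0.08 (standard error, 95% interval 0.06 to 0.38, edgeR, adjusted p = 0.421). The exact permutation test gave an unadjusted p of 0.0238. With transcript lengths as an offset the interval was -0.34 to 0.71 (adjusted p = 0.887 from edgeR).

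Npr1 (chr3:90450591-90465866, minus strand) was at 46.0, 45.8, 37.8, 33.7 and 51.7 CPM in control mice and at 45.2, 36.0, 47.5, 55.5 and 46.3 CPM in HFD+mTAC mice. The groups overlapped almost wholly, and the log2 fold change was 0.10 ± 0.13 (standard error, 95% interval -0.19 to 0.39, edgeR, adjusted p = 0.908). It was 0.02 without TT-586 or TT-591, 0.06 without TT-585 and 0.17 without TT-587 or TT-589. Npr1 followed the endothelial list (Pecam1, Cdh5, Kdr, Tek, Emcn and Tie1) across mice. The Pearson r was 0.88 over 10 mice (permutation p = 0.00044, adjusted 0.0022), the Spearman rho 0.87 (permutation p = 0.00225, adjusted 0.0112), and r was 0.79 without TT-591 and TT-589 and 0.90 after subtraction of the group means. The summed endothelial level was 1598 to 2021 CPM in control and 1610 to 2258 CPM in HFD+mTAC mice, with 3 of 6 markers higher, 3 lower and 0 called.

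Npr3 (chr15:11839896-11907287, minus strand) was at 35.9, 38.7, 31.8, 33.1 and 42.5 CPM in control mice and at 37.9, 21.2, 32.3, 38.5 and 35.1 CPM in HFD+mTAC mice. Only TT-589 lay below the lowest control mouse, and the log2 fold change was -0.14 ± 0.15 (standard error, 95% interval -0.47 to 0.19, edgeR, adjusted p = 0.873). It was -0.02 without TT-589 and -0.08 without TT-587. Npr3 had an r of 0.69 with the mean of 6 endocardial markers tested (permutation p = 0.0613, adjusted 0.102, rho 0.35 with an adjusted p of 0.461), which rested on TT-589 and TT-588, since r was 0.01 without them. The summed level of the 7 endocardial markers was 119 to 159.5 CPM in control and 105 to 172 CPM in HFD+mTAC mice.

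The ratio of the cyclase receptor to the clearance receptor was higher in HFD+mTAC mice, by a margin that depended on single mice. In TPM, the Npr1 to Npr3 ratio was 6.09, 6.57, 3.52, 6.60 and 6.33 among control mice, against 6.73, 6.51, 8.71, 7.21 and 8.73 among HFD+mTAC mice. All HFD+mTAC mice but TT-589 lay above the highest control mouse, and control mouse TT-585 stood apart below the rest. The mean log2 ratio was 2.50 ± 0.39 in control and 2.91 ± 0.20 in HFD+mTAC mice (SD, n = 5 each), a difference of 0.41 (two-sided exact permutation test, p = 0.0238, adjusted over the 2 ratios 0.0476). On the CPM scale, where a ratio is not corrected for length, it averaged 1.18 ± 0.097 in control and 1.42 ± 0.19 in HFD+mTAC mice, a log2 difference of 0.27 with the same p. Without TT-585 the TPM difference was 0.23. In 9 of the 10 comparisons that left out 1 mouse the adjusted p was 0.0635 to 0.0952 (exact permutation tests). The exception was 0.0317 without TT-589. Unadjusted, the exact permutation p lay between 0.0159 and 0.0476 in all 10. Leaving out a mouse also leaves fewer arrangements, so that the smallest p the test allows is larger than with 5 against 5 mice. With 1 TPM added to both genes the difference was 0.18 (exact permutation test, adjusted p = 0.770). Npr3 was below 1 TPM in every mouse.

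Mme, encoding neprilysin, had the smallest p of the system. Mme (chr3:63241537-63386030, plus strand) was at 12.9, 11.2, 17.6, 18.9 and 12.1 CPM in control mice and at 24.9, 24.8, 19.7, 17.8 and 20.9 CPM in HFD+mTAC mice. Of the HFD+mTAC mice, 4 lay above the highest control mouse, and TT-591 lay between the control mice TT-585 and TT-586. The means were 14.6 ± 3.47 and 21.6 ± 3.13 CPM (SD, n = 5 each), a fold of 1.49 (95% interval 1.16 to 1.90), with a log2 value of 0.57 ± 0.16 (standard error, edgeR, adjusted p = 0.312). DESeq2 gave an adjusted p of 0.0931, the smallest of the 20 alternatives, and the exact permutation test an unadjusted p of 0.0159. With transcript lengths as an offset the log2 value was 0.66 (adjusted p = 0.626 from edgeR). With limma on log2(TPM + 1) it was 0.47 (adjusted p = 0.645). Without 1 mouse the adjusted p from edgeR lay between 0.188 (TT-586) and 0.602 (TT-583). Mme was also the lowest of the 8 genes in counts, with 154 to 410 per mouse. Fibroblast markers, of a cell type that can carry neprilysin, had a median log2 fold change of 0.02, with 3 of 6 higher, 3 lower and 0 called, and summed levels of 1018 to 1385 CPM in control and 1040 to 1407 CPM in HFD+mTAC mice. Neutrophil markers, of another such cell type, summed to 7.75 to 14.0 CPM in control and 1.94 to 13.7 CPM in HFD+mTAC mice, with 3 of 3 tested lower and 0 called. The part of these cells in the level of Mme was not tested.

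Corin and Furin had overlapping groups. Corin (chr5:72300025-72504473, minus strand) was at 275, 251, 334, 339 and 392 CPM in control mice and at 319.6, 344, 248, 215 and 312 CPM in HFD+mTAC mice. Its log2 fold change was -0.14 ± 0.15 (standard error, 95% interval -0.47 to 0.18, edgeR, adjusted p = 0.862), and 2 HFD+mTAC mice lay below all control mice. It was -0.06 without TT-591 or TT-587, -0.10 without TT-590, -0.22 without TT-584 or TT-589, and -0.25 with transcript lengths as an offset. Furin (chr7:80388585-80405436, minus strand) was at 122, 134, 140.1, 130.4 and 114 CPM in control mice and at 128, 138, 134, 121 and 141 CPM in HFD+mTAC mice. For Furin too the groups overlapped, and the log2 fold change of 0.05 ± 0.08 (standard error, 95% interval -0.12 to 0.22, edgeR, adjusted p = 0.923) became -0.07 with transcript lengths as an offset and -0.02 with limma on log2(TPM + 1). Without 1 mouse it lay between 0.01 (TT-587) and 0.08 (TT-585).

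The lengths behind the TPM values varied between mice for some of these genes. The deposited length is an average over the transcripts of a gene, weighted by their estimated abundance and after salmon's bias corrections. The longest annotated transcripts are those of GENCODE M21, a release other than the one the study's methods give for quantification. For Furin the deposited length averaged 19372 bases, 3.38 times its longest annotated transcript of 5736 bases. It lay above that transcript in 10 of 10 mice. Corin (1.32 times), Mme (1.12 times) and Npr3 (1.10 times) also had mean lengths above their longest transcript, while Npr2 (0.437), Nppa (0.410), Npr1 (0.382) and Nppb (0.368) had lengths below it. Such values were no rarity, since 4 of 8 genes here and 6130 of 12816 genes with an annotated length (47.8%) had a mean above the longest transcript. No difference in length between the groups was detected for the 8 genes, with exact permutation p-values from 0.143 to 0.841.

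For each of the 8 genes tested the spread between mice was wider in TPM than in CPM, most for Npr2, Furin and Npr1. Npr1 length ranged from 1130 to 2697 bases, a ratio of 2.39, and Npr2 length from 1000 to 2840 bases, a ratio of 2.84. The within-group SD of log2 values was 0.09 in CPM and 0.44 in TPM for Npr2, 0.10 and 0.44 for Furin, and 0.24 and 0.65 for Npr1. It was 0.28 and 0.43 for Npr3, 0.28 and 0.41 for Mme, and 0.42 and 0.51 for Nppb. For Nppa it was 0.53 and 0.54, and for Corin 0.271 and 0.275. Control mouse TT-585 had the greatest length of both Npr1 and Npr2. Its Npr1 value was 37.8 CPM and 2.06 TPM, the latter the lowest of the 10 mice, and its Npr2 value was 87.1 CPM, the highest control value, and 4.51 TPM, the lowest of all.

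**Figure D4:**
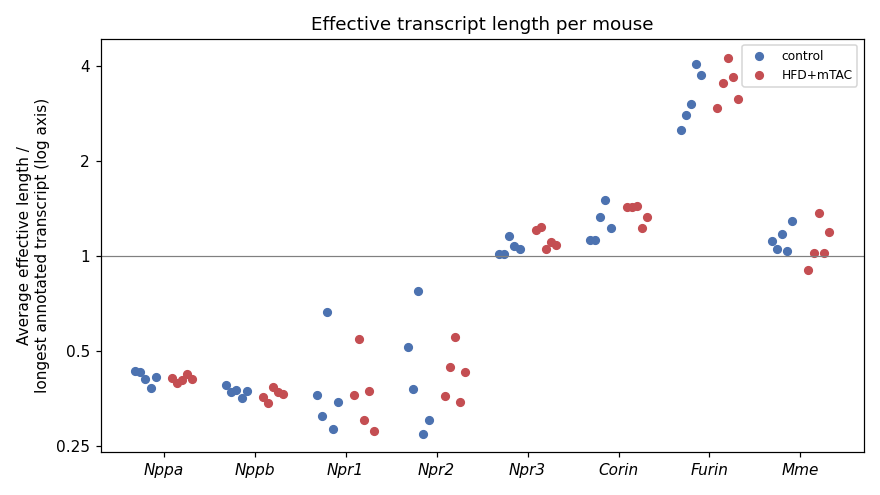
Average effective length of the 8 genes tested divided by the longest annotated transcript (log axis, line at 1), with 1 point per mouse, control mice on the left of each gene and HFD+mTAC mice on the right. Furin lies far above 1 in every mouse, the peptide genes near 0.4 with little spread, and Npr1 and Npr2 spread widely within each group.

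Genes that act beside the natriuretic peptide system were described by 4 lists, and edgeR called 0 genes in each, against 0.0602% of all genes. Beside the counts below an unadjusted p of 0.05 in each list stands a share of 8.26% of all genes, and beside genes without overlap between the groups one of 1.96%. Of 18 cGMP effectors and phosphodiesterases, 17 were tested, 4 with positive and 13 with negative log2 fold changes and a median of -0.08 against 0.00 over all genes, and 4 had an unadjusted p under 0.05. Prkg1, the cGMP-dependent kinase that acts below the cyclase receptors, was at 16.6 ± 3.53 CPM in control and 21.2 ± 3.27 CPM in HFD+mTAC mice (log2 fold change 0.35, adjusted p = 0.594 from edgeR). Among the enzymes that break down cGMP, Pde1b had a log2 fold change of 0.64 (adjusted p = 0.567), Pde1c of -0.35 (adjusted p = 0.542) and Pde2a of -1.41 (adjusted p = 0.478, all from edgeR). Pde2a ranged from 12.4 to 69.0 CPM in control and from 2.37 to 20.6 CPM in HFD+mTAC mice, with control mouse TT-587 far above the others, and without that mouse its log2 fold change was -0.79.

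Of 16 other processing and degrading enzymes, 11 were tested, 6 with positive and 5 with negative values, a median of 0.02 and 3 with an unadjusted p under 0.05. Pcsk6, a proprotein convertase that activates corin, was at 97.1 ± 8.91 CPM in control and 114 ± 10.1 CPM in HFD+mTAC mice (log2 fold change 0.22, adjusted p = 0.510 from edgeR). Fap, a protease of activated fibroblasts, was at 5.39 ± 1.18 and 7.59 ± 1.07 CPM (0.49, adjusted p = 0.465). Spint2, an inhibitor of membrane proteases, was at 28.8 to 37.9 CPM in control and 22.8 to 28.1 CPM in HFD+mTAC mice without overlap (-0.30, adjusted p = 0.421). Ide, an insulin-degrading protease that also cuts ANP, was at 112 ± 14.1 and 97.6 ± 16.8 CPM (-0.20, adjusted p = 0.724, and -0.13 without TT-591).

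Of 23 transcriptional regulators of Nppa and Nppb, 23 were tested, 9 with positive and 14 with negative values, a median of -0.04 and 2 with an unadjusted p under 0.05. Hdac4, a class IIa histone deacetylase that holds back Mef2 targets such as Nppa, was at 25.2, 27.6, 23.6, 26.8 and 29.1 CPM in control mice and at 38.8, 42.3, 33.2, 32.5 and 34.8 CPM in HFD+mTAC mice. The groups did not overlap, and the log2 fold change was 0.46 ± 0.10 (standard error, edgeR, adjusted p = 0.197). DESeq2 called Hdac4 with an adjusted p of 0.00909, the only gene of the 4 lists that it called, against 0.902% of all genes tested. Over the genes of these lists, 1 call lies near that share. Hand2 had a log2 fold change of 0.28 (adjusted p = 0.559, all from edgeR), Rest, a repressor of the peptide genes, of -0.19 (adjusted p = 0.698), and Mef2c of -0.14 (adjusted p = 0.722). They moved to 0.18 for Hand2 without TT-591, -0.12 for Rest without TT-586 and -0.09 for Mef2c without TT-587.

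Of 12 load-responsive cardiomyocyte genes, 12 were tested, 8 with positive and 4 with negative values, a median of 0.11 and 2 with an unadjusted p under 0.05. Acta1, skeletal alpha-actin, known to rise in the loaded heart, was at 138 to 344 CPM in control mice and at 366, 219.7, 1120.4, 408 and 422 CPM in HFD+mTAC mice (log2 fold change 1.13, standard error 0.38, adjusted p = 0.416 from edgeR). Without TT-590 it was 0.61 for Acta1 (adjusted p = 0.601 from edgeR). TT-590, the mouse with the highest Acta1, was also the HFD+mTAC mouse with the highest Nppa and Nppb. Rcan1, a target of calcineurin signalling, was at 222, 303, 116, 62.3 and 86.4 CPM in control mice and at 36.8 to 79.2 CPM in HFD+mTAC mice (-1.35, standard error 0.38, adjusted p = 0.299). Atf3, a stress-induced transcription factor, had a log2 fold change of -0.51 (adjusted p = 0.670, and -0.34 without TT-591) and the stress cytokine gene Gdf15 of 0.56 (adjusted p = 0.738, and 0.35 without TT-590). Within the list, values thus lay on either side of 0, as they did for the 8 natriuretic peptide genes.

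**Figure D5:**
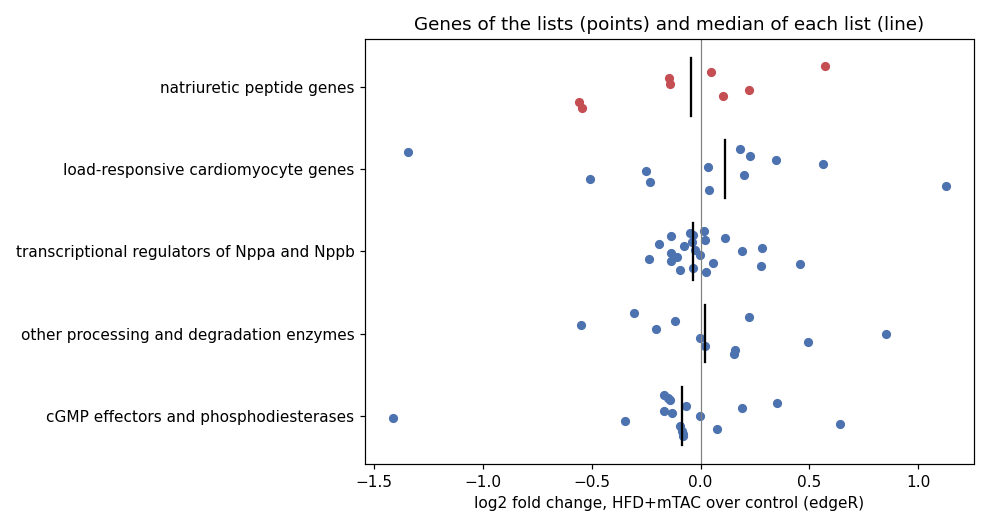
Log2 fold change of HFD+mTAC over control mice (edgeR) for the tested genes of 4 lists and the 8 natriuretic peptide genes, with 1 point per gene and a line at the median of each list. The medians lie between -0.08 and 0.11, and each list has values on either side of 0.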

How the data were processed

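Polyadenylated left ventricular RNA was sequenced with a stranded kit. Per the study's methods, reads were trimmed, quantified with salmon against GENCODE transcripts of GRCm38 and summed per gene with tximport. The labels name Salmon 1.6.0 and, for these mouse samples, a human build, and the methods and labels differ in read layout. The authors deposited estimated counts, of which 20.1% of values are not whole, TPM values (length-corrected and scaled within each library by the authors) and average effective transcript lengths. Groups came from the labels.

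Rounded counts entered the quasi-likelihood test of edgeR 4.0.16 under R 4.3.3 (TMM scaling, no covariates, Benjamini-Hochberg adjustment over 13297 genes, threshold 0.05). Genes tested were protein-coding, not mitochondrially encoded and had at least 1 count in 90% of the mice. CPM are counts scaled by TMM library sizes, and log2 CPM used a prior count of 2. Gene positions and the longest annotated transcripts came from GENCODE M21, where 27812 of 29564 symbols matched and 858 matched through older symbols. Single values were compared by exact permutation of 5 against 5 mice (252 arrangements), and correlations with 100000 permutations. The edgeR, DESeq2 and limma fits were checked on simulated counts drawn with 1 dispersion for all genes, and the permutation tests were not. Alternatives were DESeq2 1.42.0, its size factors, upper-quartile normalization, limma 3.58.1 on log2(TPM + 1) and log2(TPM + 0.1), other filters, all biotypes, a length offset, a robust fit and omission of each mouse. Named were all 9 genes, the 2 with the smallest p in each direction per list, genes within 150000 bases of Nppa or Nppb (examples are given) and the 3 most alike to each. The genes and lists were chosen with earlier results of these data known. The labels give no batch.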

Additional observations from a re-analysis of the deposited data

Results flagged for a closer look

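Within each group of 5 mice, values were examined for a mouse far from the other 4 by Dixon's criterion, over 68 sets of 5 values. Chance marks about 1 in 20 such sets. Control mouse TT-585 had an average Npr1 transcript length of 2697 bases, against 1146 to 1469 in the other control mice. The same mouse had a log2 ratio of Npr1 to Npr3 of 1.82, against 2.61 to 2.72, on the TPM scale, which divides counts by these lengths. Among genes beside the system, Pde1b was at 3.45 CPM in control mouse TT-584 (1.76 to 2.08 in the others), Pde2a at 69.0 CPM in control mouse TT-587 (12.4 to 23.1), and Acta1 at 1120.4 CPM in HFD+mTAC mouse TT-590 (219.7 to 422). No CPM value of the 8 natriuretic peptide genes tested was marked.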

How the results depend on the processing

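Over 20 alternatives, of which 10 left out 1 mouse each, 157 of 160 log2 fold changes of the 8 genes tested kept their direction, and none passed an adjusted p of 0.05. The exception was Furin, at -0.0168 with limma on log2(TPM + 1), -0.0174 with log2(TPM + 0.1) and -0.0672 with a length offset. The number of genes called over the whole table, 8 by edgeR, was 120 with DESeq2, 1 with limma at either pseudocount, 1 with the length offset and 1 to 9 without 1 mouse, and the regulator list had 1 call with DESeq2 (Hdac4). The causes were not tested. Without 1 mouse, the Nppa to Nppb log2 difference ranged from -0.25 to 0.05 (0.0464 without TT-586 and 0.0271 without TT-588) and the Npr1 to Npr3 difference from 0.23 to 0.46, the latter being 0.18 with 1 TPM added. Length differences without 1 mouse ranged for Npr1 from -256 to 196 bases (196 without TT-585, 16.5 without TT-592). For Npr2 they ranged from -244 to 216 (216 without TT-585) and for Mme from -800.0 to 146 (54.7 without TT-587, 146 without TT-588). For Npr3 they ranged from 332 to 667. The 667, without TT-585, had an unadjusted exact permutation p of 0.0317, against 0.143 with all mice. No other length p without 1 mouse was under 0.05. No paired analysis was possible because the groups share no replicate numbers.

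With 5 mice per group, the intervals left room for sizable differences, for Nppa from -1.16 to 0.07 on the log2 scale. The depth of 12.6 to 21.1 M counts on tested genes did not allow a comparison of Nppc. RNA levels do not give peptide levels or cleavage.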
